A study of Caenorhabditis elegans with 2 samples.

Results

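The genes hsp-1, hsp-3, hsp-4, hsp-6, hsp-60 and hsp-110 encode chaperones of the HSP70, HSP60 and HSP110 families of Caenorhabditis elegans. They were examined for chromatin recovered with T26A5.8, a protein tagged for chromatin immunoprecipitation sequencing (ChIP-seq). They are 6 of the 19973 protein-coding genes annotated on the 6 nuclear chromosomes, and they were selected on measured values, since the signals of regions at these genes in the same lists were known when they were chosen. For that reason the counts and signals below describe the genes and carry no test. Of the 6 genes, 4 had a region of the authors' reproducibility-thresholded list in the window from 1000 bp upstream of the gene start to 500 bp past the gene end, and these 4 held 6 of the 369 thresholded regions. The 4 were hsp-1, hsp-110, hsp-6 and hsp-60, which act in the cytosol or in mitochondria. The endoplasmic reticulum (ER) genes hsp-3 and hsp-4 had none.

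All samples came from strain OP598, with the genotype unc-119(tm4063) III and the transgene wgIs598, a line that stably expresses T26A5.8 with a GFP and FLAG tag at its C-terminus. Young adults of pooled sexes were collected 63 h after synchronization at the L1 stage, the larvae having been starved after bleaching, and sonicated chromatin was recovered with an antibody against GFP. The design has 1 group of 2 biological replicates, numbered 3 and 4, and no treatment or second genotype. Because whole worms were used, cell types cannot be told apart, and the promoter that drives the transgene is not given in the sources used here. The thresholded list held 369 regions on build ce11, with signals from 87.7 to 393.9 (median 105.6), and the pooled list and each replicate list held 30000 entries that include background. The signal is the authors' enrichment value, with no stated scaling, so that it was ranked within a list and rank 1 is the strongest entry. The depth behind a signal is unknown, as no list holds counts, and control libraries were not analysed here.

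Proteins of the HSP70 family bind exposed hydrophobic stretches of unfolded proteins and release them in a cycle driven by ATP. J-domain proteins stimulate the hydrolysis of ATP, and nucleotide exchange factors such as HSP110 reset the cycle. HSP60 forms a barrel that encloses a folding protein under a lid made of HSP10. In C. elegans, hsp-1 is the constitutive cytosolic HSP70 gene, hsp-3 and hsp-4 encode BiP, the HSP70 of the ER, and hsp-6 and hsp-60 encode the HSP70 and HSP60 of mitochondria. Reporters of hsp-4 are widely used as readouts of the ER unfolded protein response in worms, and those of hsp-6 and hsp-60 as readouts of the mitochondrial one.

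The 101 bases centred on the summit of each of the 6 thresholded regions are shown because these are the places at the chaperone genes where the recovered chromatin was most enriched in the thresholded list. They were read from the RefSeq genome WBcel235, which is ce11, on the strand of the chaperone gene and 5′ to 3′. Capitals mark matches to the motifs GAANNTTC, TATAAA and GCGCAC on either strand.
hsp-1 start, chrIV:17278517-17278617, forward strand: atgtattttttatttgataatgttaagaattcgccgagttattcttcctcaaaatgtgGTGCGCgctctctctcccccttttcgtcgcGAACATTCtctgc
hsp-1 end, chrIV:17281335-17281435, forward strand: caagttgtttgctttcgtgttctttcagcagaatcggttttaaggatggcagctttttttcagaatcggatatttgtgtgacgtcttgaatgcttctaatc
hsp-6 end, chrV:4823792-4823892, reverse strand: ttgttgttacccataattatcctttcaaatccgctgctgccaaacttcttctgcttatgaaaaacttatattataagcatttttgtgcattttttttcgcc
hsp-60 start, chrIII:1619055-1619155, forward strand: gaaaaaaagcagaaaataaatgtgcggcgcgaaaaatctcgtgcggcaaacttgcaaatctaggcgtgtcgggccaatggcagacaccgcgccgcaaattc
hsp-60 end, chrIII:1625822-1625922, forward strand: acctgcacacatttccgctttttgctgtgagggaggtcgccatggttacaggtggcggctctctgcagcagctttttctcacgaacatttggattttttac
hsp-110 end, chrIII:8443771-8443871, reverse strand: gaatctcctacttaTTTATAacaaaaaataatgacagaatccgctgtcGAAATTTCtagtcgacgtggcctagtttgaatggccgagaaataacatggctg

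All 6 summits lay in sequence outside every annotated gene. Summits outside every gene made up 35.5% of all 369 thresholded regions (131 regions) and 23.4% of the 29559 pooled entries that did not overlap a thresholded region. None of the 6 lay within 200 bp of a tRNA, snoRNA, snRNA, miRNA or rRNA gene, a distance within which 176 of the 369 thresholded regions (47.7%) fell. Among the other pooled entries this share was 2.07%.

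Of the cytosolic genes, hsp-1 (chromosome IV, 17278959 to 17281330, forward strand) had the strongest of the 6 regions, and it lay at the end of the gene. This region, from 17281274 to 17281519, had a signal of 197.2 in the thresholded list (rank 18 of 369), 188.0 in the pooled list (rank 17), 102.6 in replicate 3 (rank 27) and 88.4 in replicate 4 (rank 20). It was thus among the 30 strongest entries in each of the 4 lists, and the summits of the replicates were 6 bp apart. The thresholded summit lay 55 bp past the annotated end of hsp-1 and 70 bp past the end of nra-1, a gene for a nicotinic receptor-associated protein on the opposite strand. The ends of these genes face each other across 124 bp, so that the region cannot be assigned to either gene alone.

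A further region of hsp-1 lay at its start, from 17278387 to 17278746, with the summit at -392 bp from the gene start. It was near the bottom of the thresholded list, with a signal of 89.1 (rank 351). Its signal was 93.4 in the pooled list (rank 256), 61.9 in replicate 3 (rank 178) and 38.5 in replicate 4 (rank 480). It therefore stood higher in replicate 3 than in replicate 4. The summit was 65 bp past the end of the unclassified non-coding gene F26D10.23.

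Between its ends, hsp-1 carries the snoRNA gene F26D10.24 in an intron. The pooled list had an entry of signal 62.6 (rank 864) with its summit inside this snoRNA gene, 1203 bp from the start of hsp-1. The matching entry of replicate 3 also had its summit inside the snoRNA gene, with a signal of 32.5 (rank 1560). That of replicate 4 had a signal of 33.1 (rank 844) and its summit 53 bp from it. This place was not in the thresholded list. The remaining pooled entries of hsp-1 lay in coding sequence or over the 3′ end of nra-1, with signals from 25.6 to 51.9.

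The other cytosolic gene, hsp-110 (chromosome III, 8443910 to 8446909, reverse strand), encodes the exchange factor. It had 1 thresholded region, at its end, from 8443641 to 8444000, with the summit 89 bp past the gene end. The signal was 129.7 in the thresholded list (rank 89), 119.0 in the pooled list (rank 106), 77.2 in replicate 3 (rank 75) and 51.9 in replicate 4 (rank 168). Both replicates placed it among their 200 strongest entries, with summits 75 bp apart. The next gene on the same strand, ufbp-1, starts 302 bp after the end of hsp-110, and the summit was at -214 bp from that start, so that the region is also upstream of ufbp-1.

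A neighbouring pooled entry had its summit in the 3′ untranslated sequence of hsp-110, at -126 bp from the gene end, with a signal of 68.5 (rank 645). It overlapped the thresholded region of hsp-110. Entries there had signals of 25.1 in replicate 3 (rank 4250, at -112 bp) and 37.2 in replicate 4 (rank 545, at -187 bp), ranks far apart. It was the strongest pooled entry of the 6 genes with no thresholded summit of its own. In the thresholded list, whose values differ from those of the pooled list, the lowest signal was 87.7. The start region of hsp-1 was the member region nearest above that limit. The start of hsp-110, which faces away from the proteasome subunit gene rpn-3 across 443 bp, had a pooled entry of signal 59.0 (rank 1036) at -249 bp. Its signal was 38.2 in replicate 3 (rank 860) and 19.8 in replicate 4 (rank 6394). The replicates thus ranked this entry far apart.

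**Figure D1:**
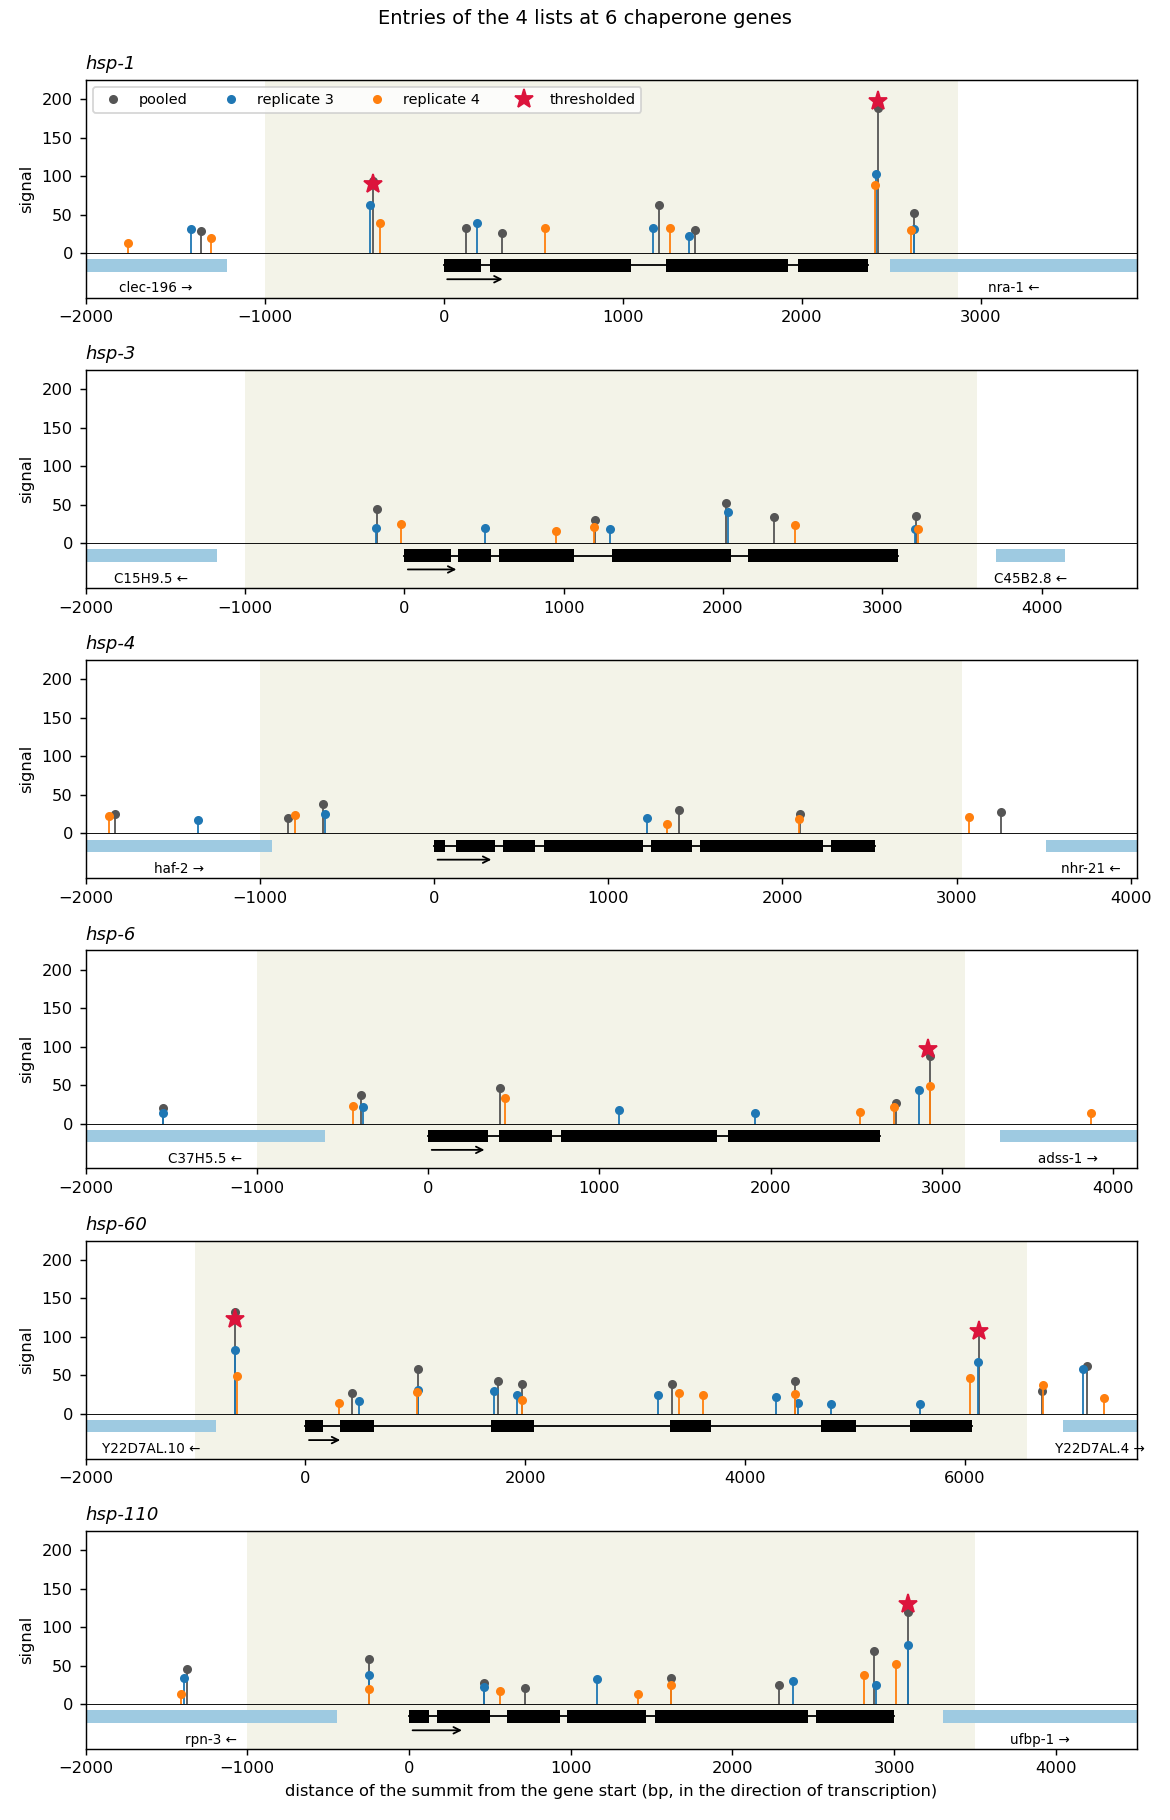
Summits of the thresholded, pooled and replicate entries at the 6 genes. The horizontal axis is the distance from the gene start in bp in the direction of transcription, the height is the authors' signal, black boxes are exons, blue bars are the nearest protein-coding genes with their direction, and the shaded span is the gene window. Stars mark the 6 thresholded regions, 4 of them just past a gene end and 2 upstream of a gene start, while hsp-3 and hsp-4 have no star.

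Of the mitochondrial genes, hsp-60 (chromosome III, 1619742 to 1625803, forward strand) had regions at both ends. Its start region, from 1618925 to 1619284, had a signal of 123.1 in the thresholded list (rank 107), 132.6 in the pooled list (rank 78), 83.2 in replicate 3 (rank 57) and 49.5 in replicate 4 (rank 200). In each list but that of replicate 4 it was among the 110 strongest entries. The summit was at -637 bp from the start of hsp-60 and at -176 bp from the start of Y22D7AL.10, which RefSeq names as the mitochondrial HSP10, the lid of the HSP60 barrel. These genes start 812 bp apart and are transcribed away from each other. The summit lay in the interval they share and closer to the HSP10 gene.

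The end region of hsp-60, from 1625692 to 1626051, had a signal of 107.1 in the thresholded list (rank 175), 107.4 in the pooled list (rank 160), 67.4 in replicate 3 (rank 123) and 47.2 in replicate 4 (rank 233). The thresholded summit was 69 bp past the gene end, and the replicate summits were 72 bp apart, so that the summit of replicate 4 fell inside the gene, at -16 bp from its end. The next gene, Y22D7AL.4, for a subunit of the transcription factor TFIID, starts 828 bp after the end of hsp-60, and the summit was at -760 bp from it. Between the regions, the body of hsp-60 held 6 pooled entries with signals from 26.8 to 58.9. The strongest of these, 1021 bp from the gene start in an intron, had a signal of 30.5 in replicate 3 (rank 1980) and 28.6 in replicate 4 (rank 1516).

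The HSP70 gene of mitochondria, hsp-6 (chromosome V, 4824124 to 4826760, reverse strand), had 1 thresholded region, from 4823662 to 4824021, with the summit 282 bp past the gene end. Its signal was 96.7 in the thresholded list (rank 256), 88.3 in the pooled list (rank 311), 43.3 in replicate 3 (rank 548) and 49.4 in replicate 4 (rank 202). It was the only one of the 6 regions outside the 369 strongest entries of replicate 3. The gene adss-1, for adenylosuccinate synthetase, starts 700 bp further along the same strand, and the summit was at -419 bp from that start. A pooled entry in coding sequence, 418 bp from the start of hsp-6, had a signal of 46.7 (rank 2312). Replicate 4 had a matching entry of signal 33.1 (rank 842) and replicate 3 had none.

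The ER genes had candidate entries in every list but the thresholded one. At hsp-3 (chromosome X, 6089028 to 6092124, reverse strand), the strongest pooled entry had a signal of 52.1 (rank 1557) and lay in coding sequence, 2021 bp from the gene start. Replicate 3 had its strongest entry at the same place, with a signal of 40.9 (rank 658). In replicate 4 the strongest entry lay instead at -22 bp from the gene start, with a signal of 24.7 (rank 2783), and no entry overlapped the place in coding sequence. A pooled entry at -168 bp from the start had a signal of 43.97 (rank 2916).

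At hsp-4 (chromosome II, 7350112 to 7352645, reverse strand), the strongest entries lay upstream in each of these lists. They lay in the 930 bp between its start and the end of haf-2 on the same strand, and nearer to the end of haf-2. The pooled entry at -636 bp had a signal of 37.8 (rank 5115). In replicate 3 the strongest entry was at -626 bp with a signal of 25.9 (rank 3785). In replicate 4 it was at -798 bp with 24.0 (rank 3105), 133 bp past the end of haf-2. These signals were above the median of genes with any entry, which was 32.6 in the pooled list, 20.5 in replicate 3 and 18.004 in replicate 4, and below those of the 6 thresholded regions in the same list.

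**Figure D2:**
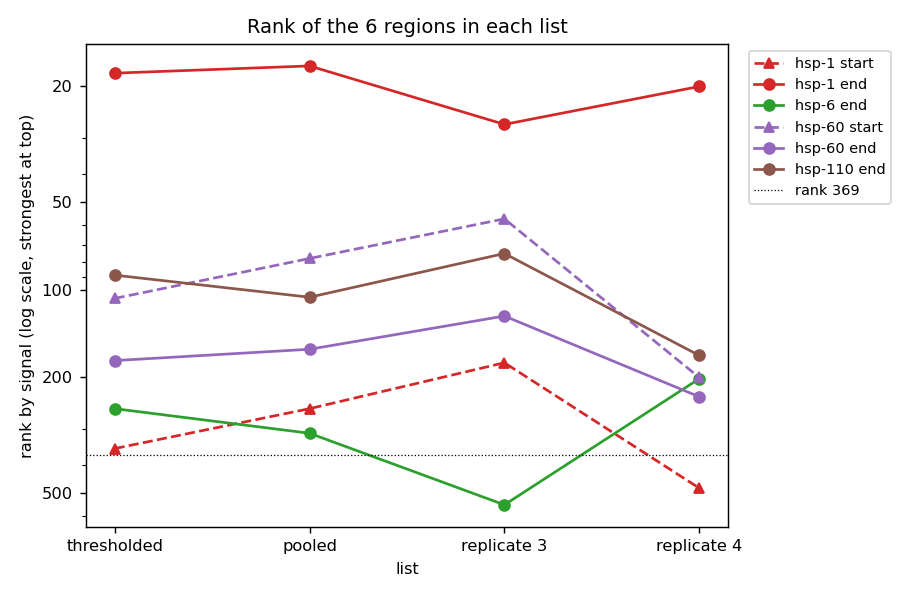
Rank by signal of the 6 thresholded regions in the 4 lists, on a log scale with the strongest at the top. Triangles with dashed lines are regions at gene starts, circles with solid lines are regions at gene ends, and the dotted line is rank 369. The end region of hsp-1 stays between ranks 17 and 27, while the end region of hsp-6 falls below the dotted line in replicate 3 and the start region of hsp-1 does so in replicate 4.

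Read against all genes, 4 of 6 chaperone genes had a thresholded region in the window, where 472 of 19973 protein-coding genes (2.36%) had one. At the gene start, from 1000 bp upstream to 200 bp inside, 2 of 6 had a region, against a background of 0.806%. At the gene end, from 200 bp inside to 500 bp past, 4 of 6 had a region, against a background of 0.996%. Separate regions at start and end were found at 7 protein-coding genes (0.0350%), of which hsp-1 and hsp-60 are 2 and the HSP10 gene Y22D7AL.10 is another. The other 4 are pigq-1, vig-1, ifet-1 and rpl-3. The start region of hsp-60 is the same region as that of Y22D7AL.10, so that 2 of the 7 genes share it. With the window of 500 bp upstream and 200 bp past the end, hsp-60 kept only its end region. The end region of hsp-1 also lies past the end of nra-1 and cannot be assigned to hsp-1 alone. When the 369 strongest entries of a replicate were used in place of the thresholded list, 3 of 6 chaperone genes had one in replicate 3, where the background was 2.31%, and 4 of 6 in replicate 4, where it was 2.41%. The gene missing in replicate 3 was hsp-6. The selection of the genes used these lists, so these counts are a description.

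The order of the genes by their strongest pooled entry was hsp-1 (rank 24 of 19973 protein-coding genes), hsp-60 (106), hsp-110 (144), hsp-6 (380), hsp-3 (1816) and hsp-4 (4581). In replicate 3 the order was the same, with ranks of 40, 80, 105, 679, 816 and 3604. In replicate 4 hsp-1 again came first, at 29, and hsp-3 and hsp-4 last, at 2909 and 3172. Between them hsp-110 (236), hsp-60 (275) and hsp-6 (279) stood in another order and close together. With 2 replicates, the order among these 3 genes was not stable, and hsp-6 and hsp-3 were close in replicate 3 only. By number, the windows of the 6 genes held 35 pooled entries, 34 of replicate 3 and 32 of replicate 4. The pooled density ran from 0.967 entries per kb at hsp-6 to 1.81 at hsp-1. Over all protein-coding genes, those without an entry included, the median was 0.303 and the upper quartile 0.563. In replicate 3 the density at hsp-4 was 0.496, below the upper quartile of 0.541 in that list, while the other chaperone genes were above it. This density counts entries that include background.

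**Figure D3:**
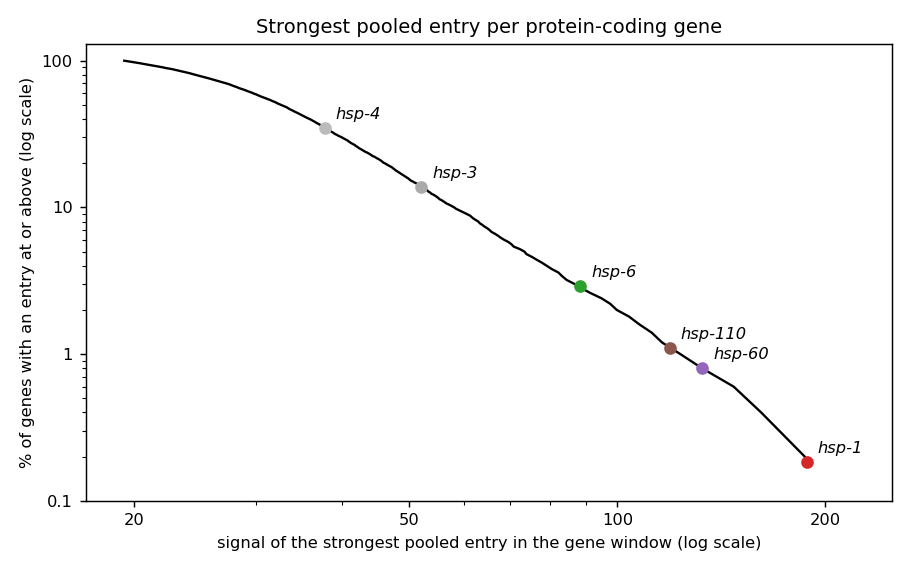
Share of protein-coding genes with a pooled entry in the window (13147 genes) whose strongest entry is at or above a given signal, both axes on log scales. Points are the 6 chaperone genes, from hsp-4 at a signal of 37.8 to hsp-1 at 188.0, and 4 of them lie at 88.3 or above.

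The regions differed in how their signals in the replicate lists compared. The signal of replicate 3 divided by that of replicate 4 was 1.60 at the start and 1.16 at the end of hsp-1, 1.68 at the start and 1.43 at the end of hsp-60, 1.49 at hsp-110 and 0.877 at hsp-6. Over all 369 thresholded regions the median of this ratio was 1.26, with quartiles of 1.01 and 1.55. The start regions of hsp-1 and hsp-60 were thus above the upper quartile, hsp-6 was below the lower one and the others were between them. The scaling of the lists is not stated, so the ratio is read here between regions and not between replicates. The thresholded list on build ce10 held 609 regions with signals down to 73.9. For each of the 6 regions it held 1 on the same chromosome with a signal within 0.01. The match was made by chromosome and signal only, and positions were not compared.

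**Figure D4:**
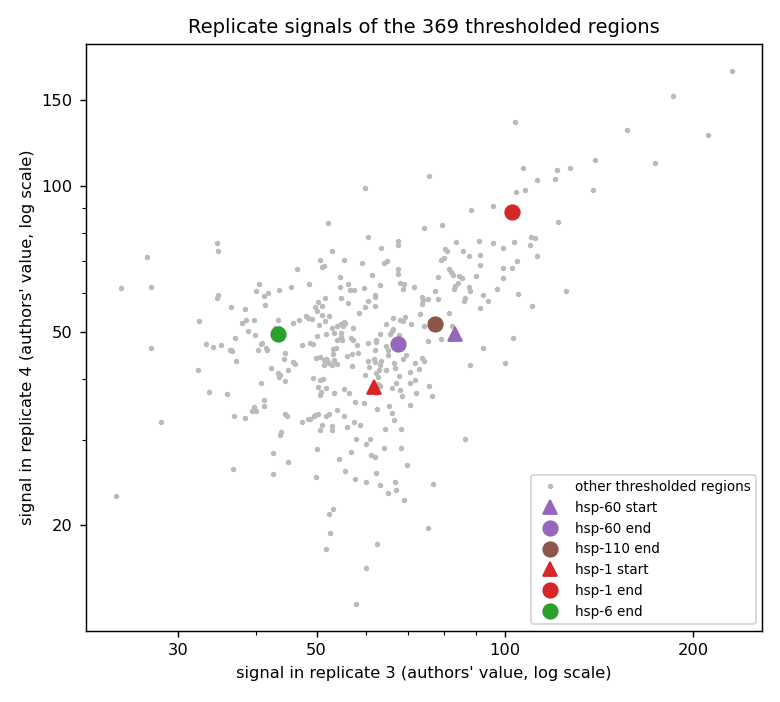
Signal in replicate 4 against signal in replicate 3 for the 369 thresholded regions, both on log scales. Grey points are other regions, coloured triangles and circles are the start and end regions of the chaperone genes. The end region of hsp-1 lies towards the upper right at 102.6 and 88.4, and hsp-6 lies to the left of the other 5.

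Base composition differed among the 6 regions. In the 101 bases around the summit, G and C made up 50.5% at the start and 49.5% at the end of hsp-60, above the median of 47.5% over all thresholded regions (quartiles 41.6% and 52.5%). With 200 bp on either side of the summit the value at the end of hsp-60 was 32.7%. The values were 41.6% at the start of hsp-1, 38.6% at its end, 38.6% at hsp-110 and 32.7% at hsp-6, which were at or below the lower quartile. The median over other pooled entries was 42.6%. Compared with sequence 400 bp away, the summit was richer in G and C at the start of hsp-1 (26.2% in the flanks), at the start (36.6%) and end (29.7%) of hsp-60 and at hsp-110 (34.7%). It was poorer at the end of hsp-1 (55.4%) and at hsp-6 (37.1%). At hsp-110 the flanks were unlike, with 29.7% at -400 bp and 39.6% at 400 bp, the latter above the value at the summit. With 200 bp on either side of the summit the value at hsp-110 was 27.4%.

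**Figure D5:**
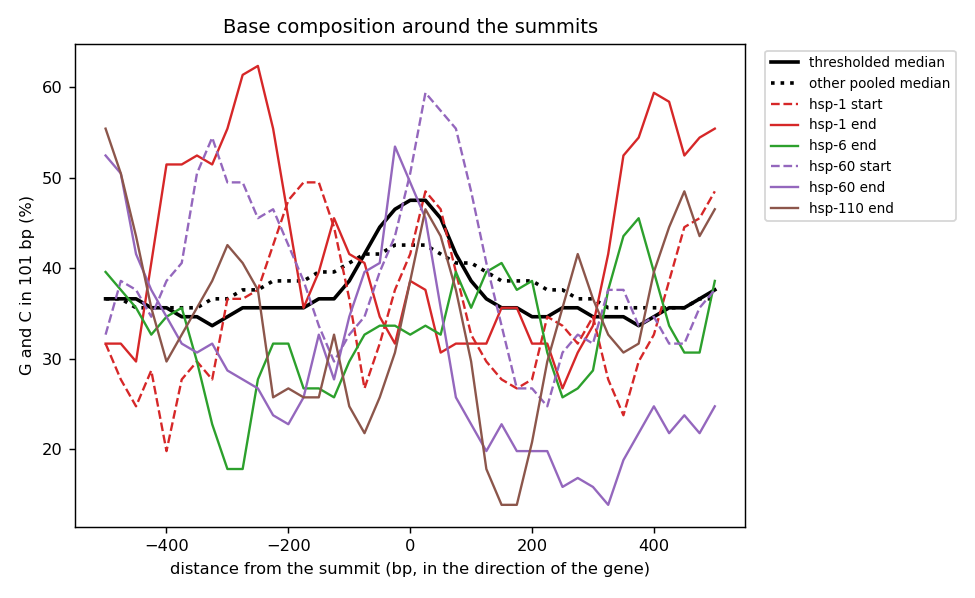
G and C content in 101 bp against distance from the summit in bp, in the direction of the chaperone gene. The thick lines are medians over the 369 thresholded regions (solid) and over other pooled entries (dotted), thin dashed lines are start regions and thin solid lines end regions. At the summit the regions of hsp-60 reach 50.5% and 49.5%, the end region only in a narrow span (32.7% with 200 bp on either side), while hsp-6 is at 32.7%.

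Of the heat shock element forms, GAANNTTC was found on either strand in 2 of the 6 summit windows shown above, at the start of hsp-1 and at hsp-110, against 6.23% of all thresholded regions and 1714 of the 29559 other pooled entries. TTCNNGAA was in none (3.52% and 5.76%), nor was the longer form, GAANNTTC followed by NNGAA, which contains both of these (1.36% and 0.467%). The ER stress element core TGACGTG was in none (1.63% and 1.07%), TATAAA in 1, at hsp-110 (8.13% and 6.51%), and GCGCAC in 1, at the start of hsp-1 (7.32% and 2.48%). GCGCAC was taken from earlier results on these regions. A match is a run of letters and not a site. No word longer than 10 bases was shared by any of the 15 pairs of windows. The end windows of hsp-6 and hsp-110 shared AATCCGCTG in the same orientation, a word chosen after it was seen. The 2 of 369 thresholded windows with it (0.542%) are these same windows, so that share was fixed by the choice. Among other pooled windows 0.0575% held it. The end windows of hsp-1 and hsp-60 shared a longer word, GCAGCTTTTT, with the same shares.

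In the promoters themselves, from 250 bp before to 50 bp after the gene start, the longer heat shock element form was found at hsp-1 and hsp-110, against 1.97% of all promoters of that length. TGACGTG was found at hsp-3 and hsp-4, the BiP genes, against 2.93%. GAANNTTC and TTCNNGAA were each found at hsp-1, hsp-4 and hsp-110, against 18.5% and 18.9%. TATAAA was found at hsp-3, hsp-60 and hsp-110, against 37.9%, and GCGCAC at hsp-3, against 5.60%. None of the thresholded summits lay in these windows: the start regions of hsp-1 and hsp-60 were at -392 and -637 bp.

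None of the 31-base words in the 6 regions occurred elsewhere in the genome, and none was shared between the chaperone genes. In the whole windows the share of repeated words was 1.93% at hsp-1, 1.90% at hsp-4, 1.01% at hsp-60 and 0 at the other 3 genes. At hsp-4 the repeated words lay outside the gene and had up to 82 copies.

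Other chaperone genes were taken from lists by role. Among 7 other genes of the HSP70 superfamily, F44E5.4 and F44E5.5, which encode cytosolic HSP70 proteins, shared 1 region between their starts on chromosome II, 11759377 to 11759528. It had a signal of 153.7 (rank 46), with 91.1 in replicate 3 and 68.7 in replicate 4, above all regions of the 6 chaperone genes but the end region of hsp-1 in the thresholded list. The genes are near-identical copies, in which 98.2% and 98.1% of 31-base words are repeated, but no word in the region between them was. The thresholded list held no region at the 3 HSP90 family genes, the 16 small heat shock protein genes or the 10 stress regulator genes. As 2.36% of all protein-coding genes had one, finding none in lists this small is near the background share. With the 369 strongest entries of replicate 3 in its place hsp-90 had an entry, against a background of 2.31%. With the 609 strongest pooled entries the small heat shock protein gene hsp-25 and the stress regulator gene xbp-1 had one, against 3.78%.

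Of 41 cochaperone genes, 8 had a thresholded region, 3 of them at the start and 6 at the end, Y22D7AL.10 being counted in both. Beside the start region shared with hsp-60, Y22D7AL.10 had an end region 430 bp past its end, with a signal of 100.6 (rank 227), 66.5 in replicate 3 and 43.2 in replicate 4. The HSP60 and HSP10 genes thus held 3 regions over adjoining genes, with the shared one the strongest in the thresholded and replicate lists. The myosin chaperone gene unc-45 had an end region of signal 148.6 (rank 58), 32 bp from the snoRNA gene F30H5.4. J-domain genes had an end region at dnj-12 (signal 128.1), a start region at dnj-13 (107.8) and an end region at dnj-20 (87.8). The summit at dnj-12 also lay inside tmem-107, that at dnj-13 inside dhgd-1, and that at dnj-20 at -134 bp from the start of hal-3. Start or end regions were also found at the exchange factor gene bag-1 (98.2), at daf-41, the gene of the HSP90 cochaperone p23 (96.3), and at sti-1, which links HSP70 and HSP90 (88.0). The bag-1 summit was 138 bp past the end of mei-2, and that of daf-41 at -207 bp from the start of ztf-8. The sti-1 summit lay 404 bp past its end and 184 bp inside srbc-58. The sti-1 region was near the bottom of the thresholded list (rank 365), with 23.9 in replicate 3 and 22.9 in replicate 4. Among 10 genes for folding and proteolysis in the ER and mitochondria, the protease subunit gene clpp-1 had a region in its body (91.8), at -57 bp from the start of mdt-22. In all, 11 of 87 other chaperone and stress genes had a thresholded region, beside the background of 2.36%. There were 5 with a region at the start, against a background of 0.806%, and 6 with a region at the end, against 0.996%. Y22D7AL.10 is in both of these counts and clpp-1 in neither. The median strongest pooled signal over the 75 of the 87 genes with a pooled entry was 46.97, against 32.6 over the 13147 protein-coding genes with an entry. Genes that share a region are not independent in these counts. A region with another gene near its summit cannot be assigned to the chaperone gene alone.

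The genes whose strongest thresholded region was most like that of a chaperone gene were sought among the regions of the same position class, by Euclidean distance in the log10 signals of the pooled and replicate lists. For hsp-1 these were nhr-102 and str-56, at a distance of 0.0340 with a shared region beside the snoRNA gene T06C12.16, and cnnm-3 (0.0623), whose region lay beside tRNA genes. For hsp-6 they were hach-1 (0.0095), fkb-2 (0.0343) and adm-4 (0.0348), and for hsp-60 srh-269 (0.0290), K05F1.6 (0.0529) and dlc-1 (0.0777). For hsp-110 they were srxa-8 (0.0372), F11A10.6 (0.0412) and Y53F4B.12 (0.0453). Of these 12 genes, 9 had a small RNA gene within 200 bp of the summit, and hach-1, fkb-2 and dlc-1 had none. Over all thresholded regions 176 of 369 (47.7%) had one. The shared region of nhr-102 and str-56 is counted for each of these genes.

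At the edges of the gene windows, the nearest entries left out were in the replicate and pooled lists. Replicate 4 had an entry of signal 21.7 at 538 bp past the end of hsp-4. The pooled list had entries at 641 and 1052 bp past the end of hsp-60, with signals of 29.5 and 62.6, the latter in an intron of Y22D7AL.4. Of the entries kept, the pooled end entry of hsp-6 lay farthest past a gene end, at 295 bp. No thresholded region was lost or gained at the 4 genes when the window was widened to 2000 bp upstream and 1000 bp past the end. With a window of 500 bp upstream and 200 bp past the end, hsp-6 lost its region and hsp-60 kept only that at its end.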

How the data were processed

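ChIP-seq region lists of 2 replicates were used, as the authors deposited them on build ce11. According to the deposited notes and per the labels, each replicate and the pooled alignments gave a list of peaks and background regions as input for the irreproducible discovery rate (IDR) procedure, from which an optimal thresholded list was made. Which aligner and peak caller were used is not given in the sources used here. The deposited signal is an enrichment value of unstated scaling. The deposited −log10 q-value, 1.93 to 2.40 over the thresholded regions, was left out of the ranking. The summit offset, as deposited, placed each region. The lists hold no read counts, so no interval is given. Lists on ce10 served only for counts and signals, and no coordinates were carried between builds.

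Genes were those of Ensembl release 115, with products from RefSeq and sequences from its WBcel235 genome. Gene windows, position classes, neighbours, ranks, composition and motifs were computed in Python 3.11.15 with numpy 2.4.6 and pandas 2.3.3, and the assignment of summits to windows was tested on simulated data. The 6 chaperone genes and the other lists were chosen with earlier results of these data known, so no test was made. A name that matched an unrelated gene was removed from a list after the lists had been read, and 1 name, dnj-6, was not found. Named besides the chaperone genes were their nearest protein-coding neighbours, genes within 200 bp of a summit, small RNA genes there, listed genes with a thresholded region, and 3 genes of most similar signals for each. The genes pigq-1, vig-1, ifet-1 and rpl-3, and listed genes that gained a region under an alternative, were named after their values were seen. So were protein-coding genes beside or around the regions of listed genes. Alternatives were other windows, overlap in place of summit, stricter and looser lists, and each replicate alone.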

Additional observations from a re-analysis of the deposited data

How the results depend on the processing

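The count of chaperone genes with a thresholded region was 4, and 3 or 4 under the other windows, overlap in place of summit, the 184 strongest regions, each replicate alone and the strongest pooled entries. The gene lost in each of the 3 settings with 3 was hsp-6: with the window of 500 bp upstream and 200 bp past the end, in the 184 strongest regions, and without replicate 4. Leaving out each replicate gave 3 to 4 chaperone genes, 2.31% to 2.41% of all genes and 10 other chaperone genes. The share of all protein-coding genes with a region was 2.36%, and it moved to 1.72% with the narrower window, 2.96% with the window of 2000 bp upstream and 1000 bp past the end, 1.20% in the 184 strongest regions, and 3.78% with the 609 strongest pooled entries, an alternative chosen after seeing the data. The count of other chaperone genes was 11. It was 6 in the 184 strongest regions, 8 with the 369 strongest pooled entries and 15 with the 609 strongest. Without replicate 3, 9 of the 11 were among the 10, with cdc-37 added. Without replicate 4, 6 of the 11 were among the 10, with hsp-90, unc-23, dnj-5 and C34C12.8 added. The 609 strongest pooled entries held all 11 and added unc-23, C34C12.8, hsp-25 and xbp-1. With start and end defined as 200 bp either side, the strongest region lay at the end in 2 genes in place of 3. Median G and C content was 40.1% with 50 bp and 34.2% with 200 bp either side. At the end regions of hsp-60 and hsp-110 it became 32.7% and 27.4%. No paired analysis was possible because the samples form 1 group and no result comes from a test. Depth is unknown, so counting error could not be given for any signal.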
